A study of Caenorhabditis elegans with 2 samples.

Results

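The 6 genes described here encode chaperones of the HSP70, HSP60 and J-domain (DnaJ) families: hsp-1 and dnj-13 of the cytosol, hsp-3 and hsp-4 of the endoplasmic reticulum (ER), and hsp-6 and hsp-60 of mitochondria. They are 6 of 19973 protein-coding genes of the nematode Caenorhabditis elegans. They were chosen by family and by the measured strength of ZTF-26 peaks at their promoters, so their peak calls, signals and ranks are a description and support nothing. ZTF-26 is a zinc finger protein, and the study mapped its binding to the genome by ChIP-seq, the sequencing of DNA recovered with an immunoprecipitated protein. Worms of strain OP565 carried the integrated transgene wgIs565, which makes ZTF-26 with a GFP-FLAG tag at the C-terminal end, and the unc-119(tm4063) allele on chromosome III, and both replicates came from this 1 line. Whole young adults, males and females pooled, were collected 56 hours after they had been synchronized by bleaching and starvation as L1 larvae, and sonicated chromatin was pulled down with an anti-GFP antibody. Biological replicates 3 and 4 form the 1 group, so no condition was compared. Whole animals were used, so peaks from different tissues cannot be told apart.

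HSP70 proteins bind exposed stretches of unfolded proteins and release them in a cycle driven by ATP. J-domain proteins hand them clients and speed up ATP hydrolysis, while HSP60 builds a closed folding chamber inside mitochondria. In C. elegans, hsp-4 is the classic reporter gene of the unfolded protein response of the ER, hsp-6 and hsp-60 are the reporter genes of the mitochondrial one, and hsp-1 encodes the abundant, constitutive HSP70 of the cytosol.

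The sequences below are the genomic sequence (WBcel235, the same build as ce11, from RefSeq) centred on each gene's strongest peak summit, and they are shown because words within them differ between the genes. Each is written 5′ to 3′ in the direction of the gene. Capitals mark matches, on either strand, to any of 9 words searched. These were ACGCAGA, with the words GAGACGC and, on the opposite strand, CTGCGTC, both of which overlap it, then the repeat CTCTCTC, the E-box core CACGTG, the word CGCCAGC, the ER stress core TGACGTG, and the heat shock units GAANNTTC and TTCNNGAA, which overlap each other in runs. The hsp-1 sequence is chrIV:17278512-17278612, dnj-13 is chrII:11545455-11545555 and hsp-60 is chrIII:1619070-1619170, all on the plus strand. The hsp-3 sequence is chrX:6092125-6092210, hsp-4 is chrII:7352660-7352760 and hsp-6 is chrV:4827122-4827222, all on the minus strand. The hsp-3 sequence stops at the edge of the gene's exon, and the summit is base 51 in all 6.
hsp-1: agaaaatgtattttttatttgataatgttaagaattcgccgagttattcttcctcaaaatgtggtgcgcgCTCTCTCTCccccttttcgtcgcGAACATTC
dnj-13: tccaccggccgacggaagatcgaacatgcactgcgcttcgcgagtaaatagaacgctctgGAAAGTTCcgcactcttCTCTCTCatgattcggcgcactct
hsp-3: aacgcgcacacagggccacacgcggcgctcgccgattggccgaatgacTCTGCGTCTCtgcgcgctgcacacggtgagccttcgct
hsp-4: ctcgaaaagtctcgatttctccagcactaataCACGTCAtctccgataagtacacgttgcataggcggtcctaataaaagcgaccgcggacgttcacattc
hsp-6: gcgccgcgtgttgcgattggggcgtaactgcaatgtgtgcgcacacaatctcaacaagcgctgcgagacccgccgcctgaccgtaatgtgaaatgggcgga
hsp-60: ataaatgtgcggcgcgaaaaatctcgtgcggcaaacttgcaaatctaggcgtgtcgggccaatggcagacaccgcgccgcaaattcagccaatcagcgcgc

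The authors deposited a list of candidate peaks for each replicate, a pooled list called from both, and an optimal list of reproducible peaks chosen by the irreproducible discovery rate. The lists hold 1929 optimal, 28233 pooled, 30000 replicate 3 and 20373 replicate 4 peaks on ce11. The optimal list was exactly the 1929 strongest pooled peaks, with a signal (the authors' value for a peak, of unstated scale) from 90.2 to 1104 and a median of 131. A peak was assigned to a gene when its summit lay from 1000 bp upstream to 500 bp downstream of an annotated transcript 5′ end. Replicate 3 gave the higher signal at most peaks, with a median ratio of replicate 3 to replicate 4 of 1.73 over the 1918 optimal peaks found in both and a log2 SD of 0.48 across those peaks. The lists carry no read counts, so depth is unknown, and with 2 replicates no SD is given for a gene.

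ZTF-26 peaks of the optimal list lay in the promoter windows of 5 of the 6 chaperone genes, against 1136 of all protein-coding genes (5.69%). The exception was hsp-4, which had only a weaker candidate peak. A pooled candidate of any rank was present at 6 of 6 genes, against 40.1% of all protein-coding genes. A summit among the 1929 strongest peaks of each replicate was present at the same 5 genes, against 842 of all protein-coding genes (4.22%). Because peak strength guided the choice of the genes, nothing is read from these shares. The pooled signals fell into 3 levels, with hsp-1, hsp-60, dnj-13 and hsp-3 high, hsp-6 lower in the optimal list, and hsp-4 below that list. By pooled signal hsp-6 ranked 1201 of the 1929 optimal peaks, but it stood higher in the replicates, at rank 974 in replicate 3 and 634 in replicate 4. Between hsp-6 and hsp-4 ran the edge of the optimal list, whose weakest peak had a signal of 90.17, against 90.16 for the strongest pooled peak outside it.

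**Figure D1:**
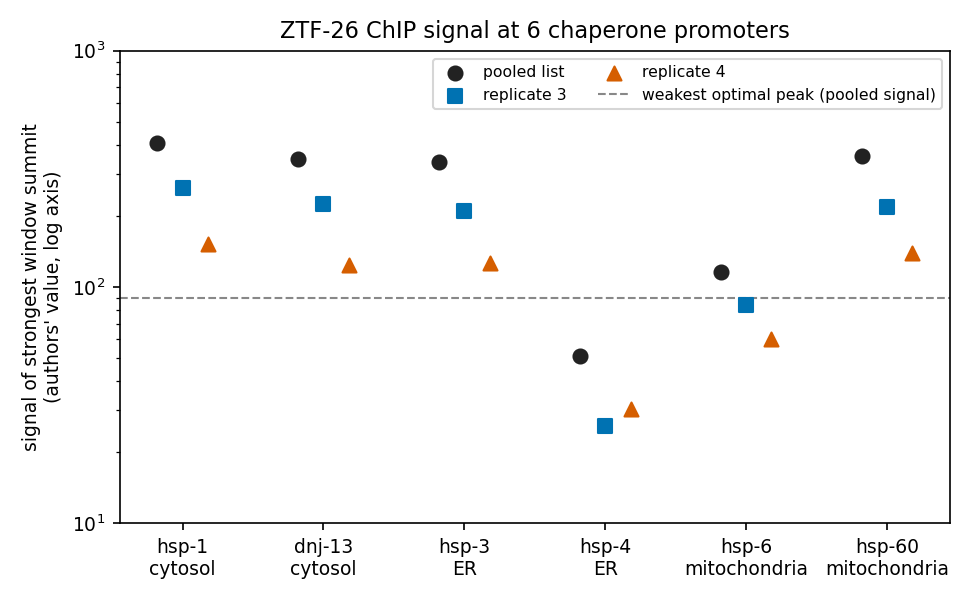
Signal of the strongest summit in the promoter window of each gene, on a log axis, with the genes along the horizontal axis; circles are the pooled list, squares replicate 3 and triangles replicate 4. The dashed line is the weakest optimal peak in pooled signal (90.2). Pooled signals of hsp-1, dnj-13, hsp-3 and hsp-60 sit between 337 and 407, hsp-6 at 116 and hsp-4 at 51.1.

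In the cytosol, hsp-1 (WBGene00002005, chrIV:17278959-17281330, plus strand) had the strongest peak of the 6 genes. Its peak at chrIV:17278421-17278713 had a signal of 407 in the pooled calls, 263 in replicate 3 and 153 in replicate 4. It ranked 55 in the pooled calls, 56 in replicate 3 and 55 in replicate 4, so it stood near the top of all 3 lists. Among protein-coding genes with an optimal summit, hsp-1 stood at place 41 of 1136. The summit lay 397 bp upstream of the 5′ end in the pooled calls, 401 bp in replicate 3 and 345 bp in replicate 4, and no other candidate summit was listed in the window. No annotated gene covered the pooled summit. The nearest gene was the non-coding RNA gene F26D10.23, which ended 60 bp away and whose 5′ end was 149 bp from the summit.

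The J-domain gene dnj-13 (WBGene00001031, chrII:11545701-11547360, plus strand) encodes a class B HSP40, a partner of HSP70 in refolding and in dissolving protein aggregates. Its peak at chrII:11545399-11545595 had a signal of 347 in the pooled calls, 224 in replicate 3 and 123 in replicate 4, with ranks of 87, 85 and 96 in those lists. The summit stood 196 bp upstream in the pooled list and in replicate 3 and 192 bp upstream in replicate 4, the tightest placement of the 6 genes. That summit fell in a crowded locus. It lay in an intron of dhgd-1 and inside both non-coding RNA genes named F54D5.22, where an annotated exon covered it. It was also 677 bp upstream of the F-box gene F54D5.9, whose 5′ end is 873 bp from that of dnj-13 on the other strand. Which of these genes the peak belongs to was not tested.

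The ER genes hsp-3 and hsp-4 both encode homologues of BiP, the HSP70 of the ER lumen, and they stood far apart in signal. The hsp-3 peak (gene WBGene00002007, chrX:6089028-6092124, minus strand) at chrX:6092037-6092262 had a signal of 337 in the pooled calls, 210 in replicate 3 and 126 in replicate 4. Its pooled summit was the nearest of the 6 to a 5′ end, and the summit lay 36 bp upstream in the pooled list and in replicate 3 and 46 bp upstream in replicate 4. Its ranks were 93, 100 and 88 in the pooled, replicate 3 and replicate 4 lists. The hsp-3 window held 4 more pooled candidates, the strongest of them 999 bp upstream with a signal of 83.6, short of the optimal list.

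By contrast, hsp-4 (WBGene00002008, chrII:7350112-7352645, minus strand) had no optimal peak. Its strongest pooled candidate, chrII:7352490-7352929 with the summit 65 bp upstream, had a signal of 51.1 and ranked 5890 of 28233, with a −log10 q-value of 0.933, whereas all optimal peaks shared a single higher value. A stronger pooled peak, at rank 3654, overlapped the window with its summit outside it, and it was also short of the optimal list. The hsp-4 values in the replicates were 25.9 in replicate 3 and 30.4 in replicate 4, below every value of the other 5 genes. These were not the same site. The strongest summit of replicate 3 lay 381 bp upstream of an internal 5′ end, 1000 bp from the pooled summit, whereas that of replicate 4 lay 23 bp downstream of the first 5′ end. At the pooled site, replicate 3 had a candidate of signal 22.3 at rank 14294, and replicate 4 its signal of 30.4 at rank 3177. The signal of hsp-3 was 6.60-fold that of hsp-4 in the pooled calls, 8.12-fold in replicate 3 and 4.15-fold in replicate 4. The replicate 3 ratio takes hsp-4 at the internal site, and since peak strength guided the choice of both genes these ratios are a description.

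The mitochondrial genes also differed in level. The hsp-60 peak (gene WBGene00002025, chrIII:1619742-1625803, plus strand) at chrIII:1619012-1619244 had a signal of 359 in the pooled calls, 218 in replicate 3 and 140 in replicate 4, with ranks of 78, 94 and 70. It was the most distant of the 5 optimal summits from its gene, 622 bp upstream in the pooled calls, 599 bp in replicate 3 and 620 bp in replicate 4. The same summit was 191 bp upstream of Y22D7AL.10, which RefSeq names as the mitochondrial HSP10, the co-chaperonin that forms the lid of the HSP60 chamber. The 2 genes run in opposite directions from 5′ ends 813 bp apart, an arrangement also known for the human HSP60 and HSP10 genes. The summit thus lay in the promoter windows of the genes of both parts of the mitochondrial chaperonin, nearer to the HSP10 gene. Which of the 2 genes the peak belongs to was not tested.

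The gene hsp-6 (WBGene00002010, chrV:4824124-4826760, minus strand) encodes the HSP70 of the mitochondrial matrix. Its peak at chrV:4826952-4827391 had a signal of 116 in the pooled calls, 84.0 in replicate 3 and 60.2 in replicate 4, all well under the other 4 optimal peaks. It ranked 1201 of 28233 in the pooled calls, 974 in replicate 3 and 634 in replicate 4. The summit was 412 bp upstream in the pooled calls, 408 bp in replicate 3 and 292 bp in replicate 4. It fell inside exons of the non-coding RNA genes C37H5.15 and C37H5.16 and was 188 bp upstream of C37H5.5, which RefSeq describes as a homologue of a nucleolar complex protein. As at hsp-60, the divergent neighbour was nearer to the summit than the chaperone gene. The signal of hsp-60 was 3.11-fold that of hsp-6 in the pooled calls, 2.59-fold in replicate 3 and 2.32-fold in replicate 4.

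**Figure D2:**
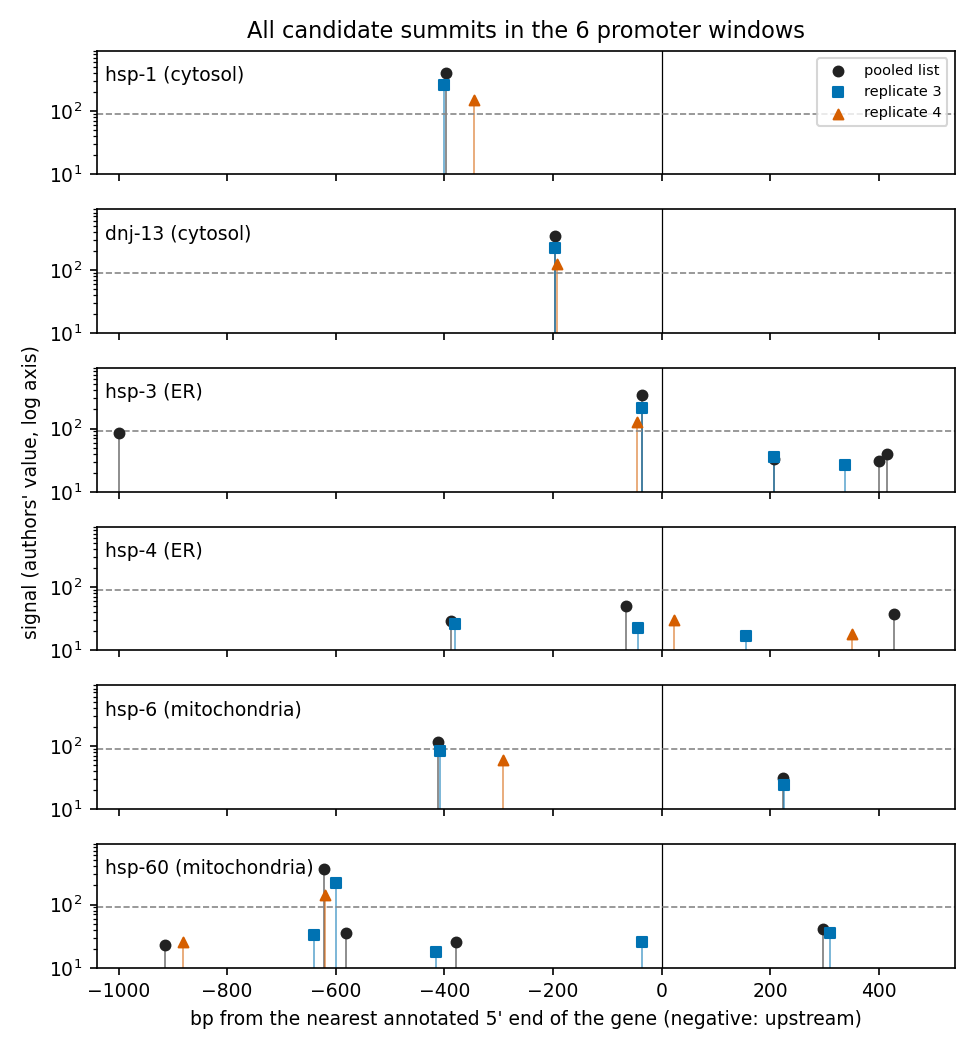
All candidate summits in the promoter windows of the 6 genes, with distance in bp from the nearest annotated 5′ end of the gene on the horizontal axis (upstream negative) and signal on a log vertical axis; circles are the pooled list, squares replicate 3, triangles replicate 4, and the dashed line the weakest optimal peak (90.2). Strong summits of the 3 lists coincide upstream of hsp-1, dnj-13, hsp-3 and hsp-60, whereas hsp-4 has only scattered weak ones.

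All 5 optimal summits lay upstream of the 5′ end, as did the strongest summit of 86.1% of all protein-coding genes with an optimal summit. The distances of the 5, from 36 to 622 bp, ran past both quartiles of those genes, 151 and 479 bp around a median of 280 bp. Summits of 3 of the 5 (hsp-60, hsp-6 and dnj-13) also lay in the window of another protein-coding gene, compared with 23.5% of the 983 optimal peaks in such windows (231 peaks). Summits of 2 of the 5 (hsp-6 and dnj-13) lay inside a non-coding RNA gene, compared with 13.1% of those 983 peaks. None of the 6 summits was near a tRNA gene, the closest being 14347 bp away at hsp-60. The nearest snoRNA gene was 1484 bp away, at hsp-1.

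The 4 strong peaks were narrow as well as high. Their widths were 293 bp at hsp-1, 233 bp at hsp-60, 226 bp at hsp-3 and 197 bp at dnj-13. The hsp-6 and hsp-4 peaks had the width of 440 bp that 98.5% of pooled peaks share, so that width does not describe these sites. Among the 983 optimal peaks in protein-coding windows 159 were narrower than 440 bp, but among the 100 strongest optimal peaks, which include these 4, 77% were. The dnj-13 and hsp-3 peaks had the common width of replicate 4, 450 bp, in that replicate's list.

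Neighbours within the high group differed by less than the spread of the replicate ratio over optimal peaks, a log2 SD of 0.48. That SD is taken across peaks and is not an error for any 1 gene. In the pooled list, on the log2 scale, hsp-1 exceeded hsp-60 by 0.18, hsp-60 exceeded dnj-13 by 0.05 and dnj-13 exceeded hsp-3 by 0.04. In both replicates hsp-1 was above hsp-60, 1.21-fold in replicate 3 and 1.09-fold in replicate 4. It was also above hsp-3, 1.25-fold in replicate 3 and 1.21-fold in replicate 4. The order of hsp-60 and dnj-13 was reversed in replicate 3, and that of dnj-13 and hsp-3 in replicate 4. These and the lower steps are given as values only, since the same signals guided the choice of the genes. From hsp-3 to hsp-6 the ratio was 2.92 in the pooled calls, 2.50 in replicate 3 and 2.10 in replicate 4. From hsp-6 to hsp-4 it was 2.26 in the pooled calls, 3.24 in replicate 3 and 1.98 in replicate 4, with the hsp-4 summits of the replicates 912 bp apart.

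At the 5 genes with an optimal summit, the replicates differed within the range seen over optimal peaks. The ratio of replicate 3 to replicate 4 was 1.81 at dnj-13, 1.73 at hsp-1, 1.66 at hsp-3, 1.56 at hsp-60 and 1.40 at hsp-6, inside the range from 1.00 to 2.99 that held the central 90 percent of optimal peaks. At hsp-4 replicate 4 was the higher one, with a ratio of 0.850 between the strongest summits and 0.734 at the pooled site, and the ratio at other weak candidates was not measured. The strongest summits of the replicates lay 4 bp apart at dnj-13, 10 bp at hsp-3, 21 bp at hsp-60, 56 bp at hsp-1, 116 bp at hsp-6 and 912 bp at hsp-4. They were within 100 bp at 4 of the 5 genes with an optimal summit, compared with 971 of the 1126 protein-coding genes with an optimal summit and a summit in both replicates (86.2%).

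**Figure D3:**
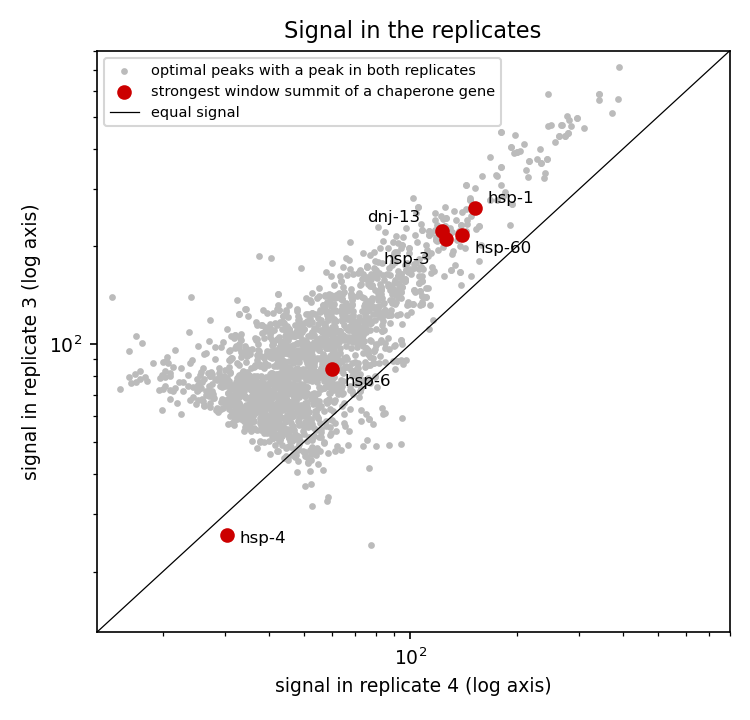
Signal in replicate 3 against signal in replicate 4, both on log axes, for the 1918 optimal peaks present in both (grey) and for the strongest window summit of each chaperone gene (red); the line marks equal signal. hsp-1, hsp-3, hsp-60 and dnj-13 lie together in the upper part of the cloud, and hsp-4, whose replicate summits are 912 bp apart, lies below the cloud and under the line of equal signal.

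The words in the summit sequences printed above differed between the genes. The cytosolic genes hsp-1 and dnj-13 shared 2 words. GAANNTTC, a unit of the heat shock element that HSF-1 recognizes, began 43 bp downstream of the summit at hsp-1 and 10 bp downstream at dnj-13. CTCTCTC began 20 bp downstream at hsp-1, with an overlapping copy at 22 bp, and 27 bp downstream at dnj-13. GAANNTTC was in 4.77% of all optimal windows (the summit base and 50 bp on either side) and in 6.29% of the 26304 lower-ranked pooled windows, so it is common at weak peaks too. CTCTCTC was in 9.90% of optimal and 3.37% of lower-ranked windows.

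At hsp-3 the summit base fell inside GAGACGCAGA, read on the strand opposite to the gene. This longer word is ACGCAGA and GAGACGC joined over the bases they share, with CTGCGTC on the other strand, and it was put together after its matches were seen. It was in 5.18% of optimal windows and 1.08% of lower-ranked windows. Of its parts, ACGCAGA was in 7.88% of optimal and 2.29% of lower-ranked windows, CTGCGTC in 7.98% and 2.19%, and GAGACGC in 8.29% and 2.12%. At hsp-4 the word TGACGTG, the core of the sites read by the ER stress factors XBP1 and ATF6 in mammals, ended 12 bp upstream of the weak pooled summit on the opposite strand. TGACGTG was in 1.71% of optimal and 1.19% of lower-ranked windows.

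None of the 9 words was in this window at hsp-6 or hsp-60. CACGTG, which shares the letters ACGTG with TGACGTG, was in 8.24% of optimal and 2.97% of lower-ranked windows, CGCCAGC in 3.58% and 0.715%, and TTCNNGAA, the other heat shock unit, in 3.89% and 6.18%; none of these 3 matched any of the 6 genes. At least 1 of the 9 words was in 36.3% of optimal and 21.5% of lower-ranked windows. The G+C content of the window was 66.3% at hsp-3, 60.4% at hsp-6, 56.4% at hsp-60, 54.5% at dnj-13, 47.5% at hsp-4 and 39.6% at hsp-1, around a median of 46.5% in optimal and 40.6% in lower-ranked windows. Whether base composition bears on the word shares was not tested. A match is a description of letters, not a site that was shown to be bound through that word.

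Other HSP70 genes ranged from the level of hsp-1 to no candidate at all. The family list had 12 genes, of which 6 (50%) had an optimal summit at 5 separate peaks. Over all protein-coding genes the share was 5.69%. This list and those below were chosen with results of these data known, and several hold genes chosen by peak strength. Their counts are therefore a description. The divergent heat-inducible genes F44E5.4 and F44E5.5 shared a peak with a signal of 399 in the pooled calls, 259 in replicate 3 and 150 in replicate 4, next below hsp-1 among protein-coding genes. The summit was 161 bp upstream of F44E5.4 and 190 bp upstream of F44E5.5. The cytosolic gene hsp-110, whose product is a nucleotide exchange factor for HSP70, had a signal of 183 with the summit 203 bp upstream. The heat-inducible gene hsp-70 had only a candidate of signal 57.8, downstream of its 5′ end, and F44E5.4 exceeded it 6.90-fold in the pooled calls, 6.54-fold in replicate 3 and 7.01-fold in replicate 4. The HSP110-like ER genes T14G8.3 and T24H7.2 had candidates of 65.8 and 32.2, and stc-1 had none in the pooled list. The remaining gene of the list, F11F1.1, had no candidate and is annotated by RefSeq as a protein with a DUF148 domain. Without it the count was 6 of 11 (54.5%).

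HSP90 and J-domain genes also varied widely. Of 3 HSP90 genes, the cytosolic hsp-90 had a signal of 307 with the summit 397 bp upstream, the ER gene enpl-1 had 115 with the summit 14 bp upstream, and the mitochondrial hsp-75 had no candidate. The ER genes thus stood at 337 for hsp-3, 115 for enpl-1 and 51.1 for hsp-4, and hsp-3 exceeded enpl-1 2.94-fold in the pooled calls, 3.49-fold in replicate 3 and 2.32-fold in replicate 4. Of 29 genes named dnj, 6 (20.7%) had an optimal summit. Below dnj-13 at 347 these were dnj-19 at 260, dnj-9 at 207, dnj-14 at 140, dnj-12 at 120.5 and dnj-20 at 106. That dnj-13 was the strongest of these is a description, since peak strength guided its choice. Of the 29 genes, 9 had no pooled candidate at all.

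The partners of these chaperones were covered in part. Of 10 co-chaperone genes 4 had an optimal summit, the BAG-domain genes unc-23 (249) and bag-1 (248), whose products release nucleotide from HSP70, the HSP90 activator gene ahsa-1 (126) and the HSP70 to HSP90 adaptor gene sti-1 (96.3). Of 15 ER folding and stress genes 8 (53.3%) had an optimal summit. Beside hsp-3 and enpl-1 these were the calreticulin gene crt-1 (193), the disulfide isomerase genes pdi-3 (176), pdi-2 (173) and pdi-1 (133), and the genes of the stress factors ATF-6 (135) and XBP-1 (123). In this list hsp-3, chosen with its peak strength known, was the strongest, and hsp-4 was among the 7 without an optimal summit. Of 15 mitochondrial stress and import genes 5 (33.3%) had an optimal summit, and after hsp-60 these were the import receptor gene tomm-20 (186), the stress response gene ubl-5 (147), hsp-6 (116) and atfs-1 (91.6), the gene of the factor that drives the mitochondrial response, which was just inside the limit of 90.2.

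The cytosolic chaperonin, the ring-shaped counterpart of HSP60, had an optimal summit at 3 of 8 subunit genes. These were cct-8 at 481, above all 6 chaperone genes described here, cct-1 at 171 and cct-7 at 105. Of 14 small heat shock genes 2 had one, the divergent hsp-16.2 and hsp-16.41, at a shared peak of 143. The names hsp-16.1 and hsp-16.48 each appear on 2 near-identical gene copies, which can share reads, and no candidate was listed at any of them. None of 4 heat shock regulator genes, hsf-1 included, had an optimal summit, and none was among the 1929 strongest peaks of either replicate, though 3 had a pooled candidate. Over all 10 lists 34 of 104 genes (32.7%) had an optimal summit, at 31 separate peaks, and without the 6 described genes 29 of 98 (29.6%) did, against 5.69% of all protein-coding genes. The lists were chosen with results of these data known, so these shares describe the genes named and are not a test.

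**Figure D4:**
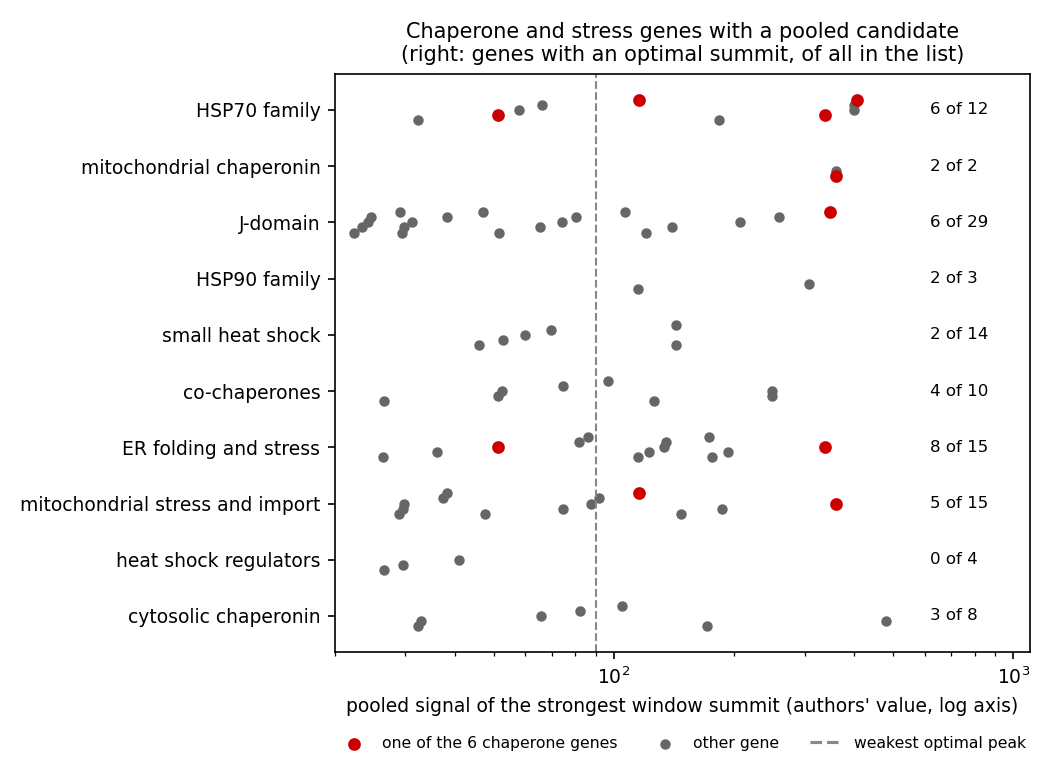
Pooled signal of the strongest window summit (log axis) for every gene with a pooled candidate, by list; red points are the 6 chaperone genes, grey points other genes, the dashed line the weakest optimal peak (90.2), and the counts on the right give genes with an optimal summit out of all in the list. The HSP70 list has 6 of 12 and the ER list 8 of 15, with hsp-3 on the right of the line and hsp-4 on its left, and the heat shock regulators have 0 of 4.

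The sequences of 3 further peaks are shown because they carry the word at the hsp-3 summit, and the first and last of them also carry heat shock units. F44E5.4 is chrII:11759422-11759522 and hsp-16.2 is chrV:1805090-1805177, both on the minus strand, and enpl-1 is chrIV:11119234-11119297 on the plus strand. The last 2 stop at exon edges, the summit is base 51, or base 38 at hsp-16.2, and capitals mark the same words as above.
F44E5.4: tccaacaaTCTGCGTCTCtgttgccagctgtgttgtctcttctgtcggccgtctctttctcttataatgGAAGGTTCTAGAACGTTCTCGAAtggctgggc
enpl-1: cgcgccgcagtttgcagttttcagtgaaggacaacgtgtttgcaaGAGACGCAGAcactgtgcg
hsp-16.2: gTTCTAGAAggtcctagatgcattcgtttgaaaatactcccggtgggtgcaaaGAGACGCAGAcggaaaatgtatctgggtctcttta

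Among the 31 optimal peaks at listed genes, GAGACGCAGA was in the summit window at 5 (16.1%): those of hsp-3, enpl-1, sti-1, the F44E5.4 and F44E5.5 pair, and the hsp-16.2 and hsp-16.41 pair. Over all optimal peaks the share was 5.18%. Because this word was put together after its matches were seen, the 2 shares are not a test. At enpl-1, as at hsp-3, the word covered the summit base, while its nearest base was 33 bp from the summit at F44E5.4 and 16 bp at hsp-16.2. At least 1 of the heat shock units GAANNTTC and TTCNNGAA was at 11 of the 31 (35.5%), against 7.67% of all optimal and 11.5% of lower-ranked windows. These were the peaks of hsp-1, dnj-13, hsp-90, hsp-110, bag-1, ahsa-1, sti-1, dnj-12, dnj-19, and the F44E5.4 and hsp-16.2 pairs, while the hsp-3, hsp-6 and hsp-60 windows held neither unit. With 100 bp on either side of the summit, hsp-60 also had both units, 63 and 68 bp upstream. At that length ubl-5 (60 bp downstream), dnj-20 (73 bp downstream) and unc-23 (50 bp upstream) had TTCNNGAA. GAANNTTC was then also found at cct-1 (50 bp downstream) and cct-8 (62 bp downstream). At least 1 unit was in 15.9% of all optimal and 22.1% of lower-ranked windows of that length. Which genes carry a unit thus depends on the length searched. TGACGTG, matched at the weak hsp-4 summit, was at 2 of the 31, both near ER genes (crt-1 and pdi-1). CTCTCTC was at 5 of the 31 (16.1%), those of hsp-1, dnj-13, dnj-20, xbp-1 and sti-1, so it was not limited to hsp-1 and dnj-13. The listed genes were picked by function with results of these data known, and several of them by peak strength. Word shares among the 31 peaks are therefore a description and not a test. Whether the factor that reads any of these words was present was not measured.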

How the data were processed

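ZTF-26 ChIP-seq was measured in 1 group of 2 biological replicates (numbers 3 and 4). Candidate peaks of each replicate were called by the authors against a control alignment (not analysed here), and the pooled and optimal lists were derived from both replicates, per the deposited text that lists the files. The peak caller, aligner and IDR threshold are not given in the sources used here. The authors' signal value, of unstated scale, was used to describe and rank peaks within a list, and the deposited lists give a −log10 q-value and a summit for each peak. All values are on ce11; the ce10 lists, of nearly the same length (1904 optimal peaks), were not placed on genes.

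Genes and transcript 5′ ends came from Ensembl release 115 (WBcel235), gene products and sequence from RefSeq. The strongest summit from 1000 bp upstream to 500 bp downstream of a 5′ end was taken for each gene and list with Python 3.11.15, pandas 2.3.3 and numpy 2.4.6, and figures were drawn with matplotlib 3.10.9. Neighbours in signal were said not to differ beyond the replicate spread if their log2 difference changed sign between replicates or was under the SD across optimal peaks of the log2 replicate ratio. Words were searched on both strands in the summit base and 50 bp on either side. With 1 group there was no comparison to test and no p-value was computed. The scripts were tested on simulated data. Every file column was mapped to a sample or to the pooled group, leaving 0 unmapped.

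The genes and all 10 lists were chosen with earlier results of these data known. The text names the 6 genes, genes that share their windows or lie nearest to their summits, listed genes with an optimal summit, every gene of the HSP70, HSP60 and HSP90 lists, and genes next in signal; hsf-1, hsp-16.1, hsp-16.48 and pdi-6 fall outside that rule and were named after their values were seen. The listed names daf-21 (a former name of hsp-90) and hsf-2 matched no gene of the annotation. Alternatives were other windows, peak overlap in place of the summit, the most upstream 5′ end alone, the stronger part of the optimal list, each replicate alone, other summit distances and other sequence lengths.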

Additional observations from a re-analysis of the deposited data

How the results depend on the processing

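Among the recomputed results, 132 kept their side of the threshold or stayed within 1.5 times, 12 counts moved further, and 2 genes lost their optimal peak. With a window from 500 bp upstream, the hsp-60 summit fell outside, leaving a pooled candidate at rank 9541, and the chaperonin list had 1 gene in place of 2. With 2000 bp upstream, and also when any overlap of the peak was counted, the small heat shock list had 4 genes. Under the overlap rule the strongest hsp-4 candidate ranked 3654 in place of 5890. With only the most upstream 5′ end, the HSP90 list had 1. In the stronger 965 optimal peaks, hsp-6 at rank 1201 was lost, and the counts were 625 for all protein-coding genes, 1 for HSP90, 2 for co-chaperones and 3 for mitochondrial stress and import; fewer peaks enter there by construction. The 6 genes had 4 to 5 optimal peaks under every window and list tried. With 51 bp around the summit, CTCTCTC was at 0 and GAANNTTC at 1 of the 5 optimal summits, and with 100 bp on either side TGACGTG (at hsp-3) and TTCNNGAA (at hsp-60) were at 1 each. With replicate 3 or replicate 4 alone, cut to its 1929 strongest peaks, 5 of 6 genes were called. Replicate summits lay within 50 bp at 3 genes and within 200 bp at 5. No paired analysis was possible because there is 1 group.

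Depth is unknown, the scale of signal is not given in the sources used here, and 2 replicates give no error for a single gene. Summits of hsp-60, hsp-6 and dnj-13 lie between the 5′ ends of divergent genes, and those of hsp-6 and dnj-13 also lie inside other genes. Such a peak cannot be given to any single gene from these data. Strength in whole animals does not separate few cells with strong binding from many with weak binding.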

Other observations

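Protein-coding genes next above and below the 6 in pooled signal of their strongest window summit are given here. The hsp-1 signal of 407 stood between larp-1, which encodes a La-related RNA-binding protein, at 414 and F44E5.5 at 399. The dnj-13 signal of 347 stood between ipla-6 at 349 and rps-26, a gene of the small ribosomal subunit, at 341. The hsp-60 signal of 359 stood between eelo-2 at 360 and Y43F8B.2 at 356, that of hsp-3, 337, between Y75B12B.11 at 339 and M03C11.3 at 336, and that of hsp-6, 116, between magi-1 and lin-49. The hsp-4 signal of 51.1 stood between W02F12.2 and lin-56, both also at 51.1.

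The disulfide isomerase gene pdi-6 had a summit among the 1929 strongest of both replicates, with a signal of 77.0 in replicate 3 and 44.8 in replicate 4, but no pooled summit in its window.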
